A study of Mus musculus with 2 samples.

Results

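The genes described here are mouse microRNA (miRNA) genes with no close copy elsewhere among annotated miRNA genes whose levels differed most between the 2 libraries of the series. They were selected on the sense read counts of those same libraries: a difference of over 2.5-fold in counts per 1000000 sense counts on miRNA genes (CPM), a mean over 100 CPM, and no stretch of 20 or more identical bases shared with the hairpin of another miRNA gene. Of 2202 annotated miRNA genes, 149 had such a mean and no close copy, and 10 of these also passed the fold. The 7 listed members are Mir674, Mir21a, Mir1839, Mir140, Mir340 and Mir31, which were higher in replicate 2, and Mir185, which was lower. Mir298, Mir222 and Mir153 met the rule as well and are described beside them. The rule used the contrast between the libraries, so the size and direction of these differences are a description and carry no test. The 7 genes higher in replicate 2 make up 4.7% of the 149 genes and the 3 lower ones 2.01%, shares that the rule itself fixes.

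Small RNA was sequenced from hippocampal tissue of female B6CASTF1/J mice at 2 months, first-generation hybrids of C57BL/6J and a strain derived from Mus musculus castaneus. The tissue label speaks of a layer of hippocampus and names no layer, and no treatment, genotype or second group is given. The libraries are biological replicates 2 and 1, with separate tissue records that point to 1 donor record, so the spread between them may be partly technical. Replicate 2 held 16280072 reads, of which 5979247 were sense counts on miRNA genes, and replicate 1 held 11666435 reads, of which 4517648 were. Reads mapping to several places, 48.4% in replicate 2 and 45.9% in replicate 1, carried no gene. Intervals are 95% exact binomial ones and describe counting error alone. They take each read as a separate molecule, which reads copied by PCR are not, so they can be too narrow even for that error.

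A miRNA gene is transcribed as a long primary RNA, on its own or as part of a host gene, and is cut first to a hairpin and then to a short duplex of its 5p and 3p arms. Usually one arm is loaded into an Argonaute protein, and bases 2 to 8 of that arm, the seed, pair with target messenger RNAs and lower their output. Neighbouring miRNA genes can be cut from the same primary RNA, and a miRNA inside a host gene can be cut from the RNA of that host. The files count reads per hairpin, so the arms are not separated and the values below are sums of both.

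The mature sequences are printed because the genes are compared by seed below. RefSeq (GRCm38.p6) gave 16 mature sequences for the 10 genes, of 21 to 24 bases, with 1 arm each for Mir1839, Mir140, Mir185 and Mir222 and both arms for the other genes. The 11 that belong to the listed members are shown 5′ to 3′ with the seed in capitals.
miR-674-5p: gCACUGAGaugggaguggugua
miR-674-3p: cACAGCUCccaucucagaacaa
miR-21a-5p: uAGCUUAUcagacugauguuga
miR-21a-3p: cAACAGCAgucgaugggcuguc
miR-1839-5p: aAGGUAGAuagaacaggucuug
miR-140-3p: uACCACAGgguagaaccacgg
miR-340-5p: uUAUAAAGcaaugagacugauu
miR-340-3p: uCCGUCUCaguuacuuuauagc
miR-31-5p: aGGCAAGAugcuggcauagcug
miR-31-3p: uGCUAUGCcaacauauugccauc
miR-185-3p: aGGGGCUGgcuuuccucuggu
The 16 seeds were all different, so no 2 of the sequences found for the 10 genes belong to 1 seed family. The other arms of Mir1839, Mir140, Mir185 and Mir222, among them the 5p arm of Mir185, were not found. Their seeds were not compared. Of the 16 sequences, 6 start with U, 4 with A, 4 with G and 2 with C.

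Mir674 (ENSMUSG00000076376.1, mm10 chr2:117185127-117185226, plus strand) had the largest ratio of the genes higher in replicate 2. It lies in no other annotated gene. It had 29123 counts or 4871 CPM in replicate 2, and 5677 counts or 1257 CPM in replicate 1, a mean of 3064 ± 2556 CPM (SD, n = 2). The level in replicate 2 was 3.88-fold that in replicate 1 (interval 3.77 to 3.99). Among all miRNA genes ordered by counts it stood at rank 39 in replicate 2 and rank 86 in replicate 1, an order that does not depend on how the libraries are scaled.

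Mir21a (ENSMUSG00000065455.1, chr11:86584067-86584158, minus strand) encodes a miRNA known for its rise in reactive glia, injured tissue and dividing cells. Its hairpin lies in an exon of 1 transcript of Vmp1, which encodes a membrane protein needed for autophagy. Mir21a had 21150 counts or 3537 CPM in replicate 2, and 4324 counts or 957.1 CPM in replicate 1, a mean of 2247 ± 1824 CPM (SD, n = 2). The ratio was 3.70 (interval 3.58 to 3.82), and the rank was 47 in replicate 2 and 96 in replicate 1. There were 1.38 counts of Mir674 per count of Mir21a in replicate 2 and 1.31 in replicate 1. Both genes were selected on their ratios, so these proportions restate them and are no separate result.

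Mir1839 (ENSMUSG00000104618.1, chr7:81529916-81529988, plus strand) lies in an exon of the long non-coding gene 2900076A07Rik. It had 9998 counts or 1672 CPM in replicate 2, and 2204 counts or 487.9 CPM in replicate 1, a mean of 1080 ± 837.4 CPM (SD, n = 2) and a ratio of 3.43 (interval 3.27 to 3.59). Mir31 (ENSMUSG00000065408.1, chr4:88910557-88910662, minus strand), studied mainly in epithelia and tumours, lies in an exon of the long non-coding gene AL805899.1. It had 7538 counts or 1261 CPM in replicate 2, and 2059 counts or 455.8 CPM in replicate 1, a mean of 858.2 ± 569.2 CPM (SD, n = 2) and a ratio of 2.77 (interval 2.63 to 2.91). There were 1.33 counts of Mir1839 per count of Mir31 in replicate 2 and 1.07 in replicate 1, which again restates the ratios on which both were selected.

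Mir140 (ENSMUSG00000065439.1, chr8:107551244-107551313, plus strand) is best known from cartilage, where it is needed for normal growth of the skeleton, and lies within Wwp2, which encodes a ubiquitin ligase. Of 4 Wwp2 transcripts that span it, 1, annotated as a retained intron, has it in an exon. Mir140 had 19064 counts or 3188 CPM in replicate 2, and 4946 counts or 1095 CPM in replicate 1, a mean of 2142 ± 1480 CPM (SD, n = 2) and a ratio of 2.91 (interval 2.82 to 3.01). Mir340 (ENSMUSG00000065417.1, chr11:50069702-50069799, plus strand) lies in an intron of Rnf130, which encodes a RING finger protein. It has the lowest mean level of the 10 genes and had 1213 counts or 202.9 CPM in replicate 2, and 315 counts or 69.7 CPM in replicate 1, a mean of 136.3 ± 94.1 CPM (SD, n = 2). Its ratio of 2.91 (interval 2.57 to 3.30) has the widest interval of the listed members relative to its size, with a lower bound close to the 2.5-fold of the rule.

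Mir185 (ENSMUSG00000065464.2, chr16:18327401-18327465, minus strand) was the listed member that was lower in replicate 2, and its difference was the largest of the 10. The miRNA is known from the chromosome segment lost in the human DiGeorge deletion, and in mouse models of that loss its level falls in the brain. The hairpin lies in an intron of Tango2. Mir185 had 1173 counts or 196.2 CPM in replicate 2, and 6831 counts or 1512 CPM in replicate 1, a mean of 854.1 ± 930.5 CPM (SD, n = 2). It was thus 7.71-fold lower in replicate 2 (interval 7.24 to 8.21). Its rank was 172 in replicate 2 and 74 in replicate 1.

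**Figure D1:**
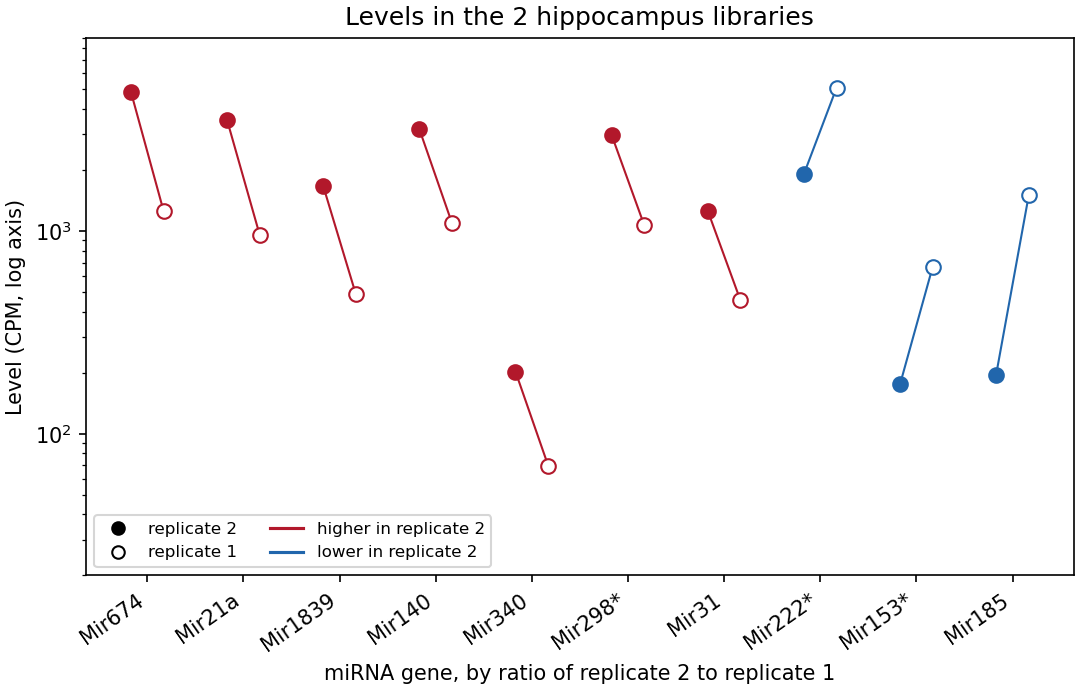
Level in CPM on a log axis (vertical) of the 10 genes that met the rule (horizontal), with replicate 2 as the filled point and replicate 1 as the open point of each gene. An asterisk marks the 3 genes beside the listed members, and each point is 1 library, so there are no error bars. The 7 red genes are higher and the 3 blue genes lower in replicate 2, and Mir185 has the widest gap (196.2 CPM in replicate 2, 1512 CPM in replicate 1).

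The 6 listed members that were higher in replicate 2 together held 1.47% of the sense counts of replicate 2 and 0.432% of those of replicate 1. With Mir298 added, the 7 genes held 1.77% and 0.539%. The 3 lower genes, Mir185, Mir222 and Mir153, together held 0.228% of replicate 2 and 0.728% of replicate 1. All 10 genes therefore came to 2.00% of the counts of replicate 2 and 1.27% of those of replicate 1. Their mean levels ranged from 136.3 CPM for Mir340 to 3506 CPM for Mir222.

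Mir298 (ENSMUSG00000065410.1, chr2:174267504-174267585, minus strand) comes from the imprinted Gnas region. It had 17840 counts or 2984 CPM in replicate 2, and 4824 counts or 1068 CPM in replicate 1, a mean of 2026 ± 1355 CPM (SD, n = 2) and a ratio of 2.79 (interval 2.71 to 2.89). Mir222 (ENSMUSG00000065471.1, chrX:19146893-19146971, minus strand), whose miRNA represses Kit and the cell cycle inhibitor Cdkn1b, had 11434 counts or 1912 CPM in replicate 2, and 23043 counts or 5101 CPM in replicate 1. Its mean was 3506 ± 2255 CPM (SD, n = 2), and it was 2.67-fold lower in replicate 2 (interval 2.61 to 2.73). Mir153 (ENSMUSG00000065538.1, chr12:117250817-117250885, plus strand), in an intron of the neuroendocrine phosphatase gene Ptprn2, encodes a neuronal miRNA. It had 1049 counts or 175.4 CPM in replicate 2, and 3016 counts or 667.6 CPM in replicate 1, a mean of 421.5 ± 348.0 CPM (SD, n = 2), and was 3.81-fold lower in replicate 2 (interval 3.55 to 4.09).

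Among the 149 genes with a mean over 100 CPM and no close copy the median difference was 1.20-fold in either direction, and the 90th percentile was 1.94-fold. Of these genes, 30 differed by over 1.5-fold and 14 by over 2-fold. Just inside the fold of the rule stood Mir222 at 2.67-fold and Mir31 at 2.77-fold, and just outside it Mir380 at 2.497-fold and Mir195a at 2.19-fold, both higher in replicate 2. Just inside the level stood Mir340 at 136.3 CPM and Mir153 at 421.5 CPM. Just below it, Mir183 had a mean of 96.5 CPM and Mir505 one of 96.3 CPM, and both were lower in replicate 2, by 2.53-fold and 3.57-fold. Between a mean of 50 and 100 CPM, 6 genes without a close copy differed by over 2.5-fold and all 6 were lower in replicate 2. They are Mir505, Mir206, Mir182, Mir183, Mir200c and Mir429. The last 4 are also in a list of epithelial and regional miRNAs below, and Mir206 is in the list of other organs. The share of these 6 over all genes at that level was not computed, so whether 6 is many cannot be told. Mir26a-2, with 3497 counts in replicate 2 against 65 in replicate 1, passed the fold and the level but shares 25 bases with Mir26a-1 and so did not meet the rule.

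**Figure D2:**
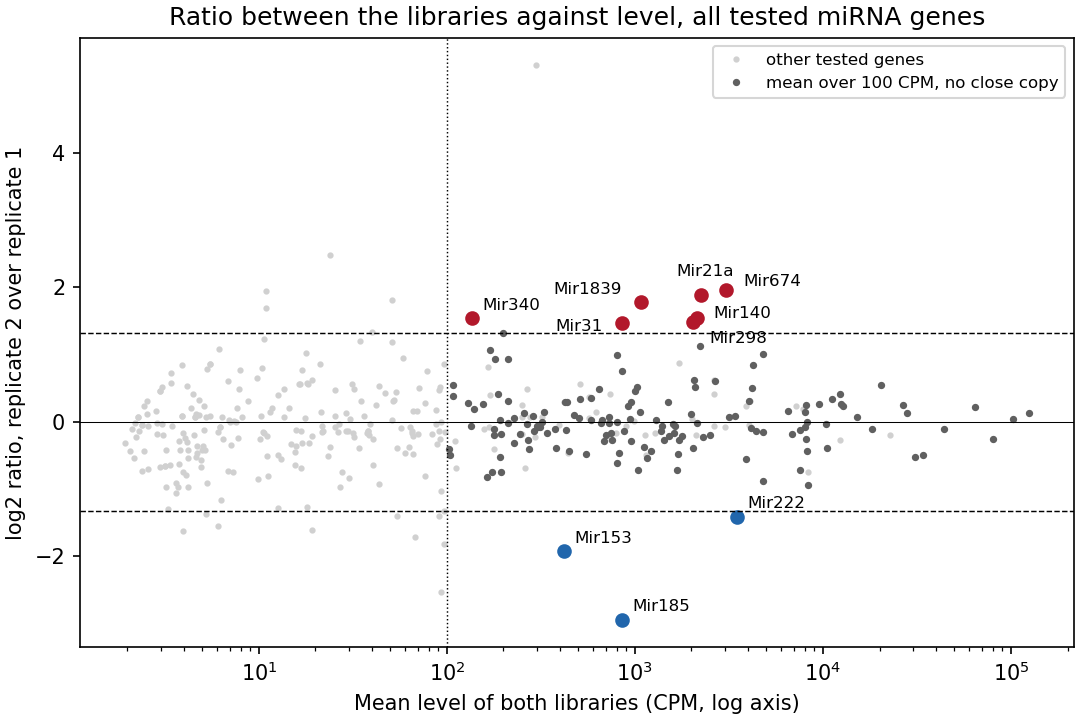
Log2 ratio of replicate 2 over replicate 1 (vertical; 0.5 CPM added to each level) against the mean level of both libraries in CPM on a log axis (horizontal), 1 point per gene among the 420 with at least 10 counts in both libraries. Dashed lines mark 2.5-fold, the dotted line marks 100 CPM, and the named red and blue points are the 10 genes that met the rule. Dark points are the other genes with a mean over 100 CPM and no close copy, and most lie near 0 while the named genes lie outside the dashed lines.

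Neighbouring miRNA genes that the rule did not choose were tested. Counts of a gene and of all remaining miRNA genes were set against each other by Fisher's exact test, two-sided, with Benjamini-Hochberg adjustment over the 420 genes that reached 10 counts in each library. The test compares the reads of these libraries and not a condition, and with it 27.1% of the 420 genes were higher and 29.8% lower in replicate 2. The balance depends on the setting. As given, 114 genes were higher and 125 lower, against 135 and 107 with TMM factors and 135 and 103 with DESeq2 size factors. With these factors the exact binomial test was used. Of the 10 genes, Mir298, Mir222 and Mir185 had another miRNA gene with counts within 100 kb. These neighbours were among the 149 genes that the rule screened. That none of them differed by over 2.5-fold therefore follows from the rule.

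Mir296 lies 378 bases from Mir298 on the same strand. It had 1972 counts or 329.8 CPM in replicate 2, and 1951 counts or 431.9 CPM in replicate 1. The neighbour Mir296 was thus lower in replicate 2, at a ratio of 0.764 (interval 0.717 to 0.813; adjusted p = 1.2e-16 by Fisher's exact test), whereas Mir298 was higher. There were 9.05 counts of Mir298 per count of Mir296 in replicate 2 and 2.47 in replicate 1.

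Mir221 lies 504 bases from Mir222 on the same strand and its 3p arm has the same seed. The sequences of both arms are shown with the shared seed in capitals.
miR-222-3p: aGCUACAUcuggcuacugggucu
miR-221-3p: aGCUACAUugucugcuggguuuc
Mir221 had 61222 counts or 10239 CPM in replicate 2, and 47376 counts or 10487 CPM in replicate 1. Its ratio was 0.976 (interval 0.965 to 0.988), with an adjusted p of 0.00021 in Fisher's exact test, and became 1.02 with TMM factors or DESeq2 size factors, where it passed as higher. There were 5.35 counts of Mir221 per count of Mir222 in replicate 2 and 2.06 in replicate 1.

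Mir1306 lies 43083 bases from Mir185 on the same strand. It had 1259 counts or 210.6 CPM in replicate 2, and 965 counts or 213.6 CPM in replicate 1, a ratio of 0.986 (interval 0.906 to 1.07) that did not pass the threshold (adjusted p = 0.84 by Fisher's exact test). There was 0.932 count of Mir185 per count of Mir1306 in replicate 2 and 7.08 in replicate 1. The remaining miRNA genes within 100 kb of the 10 genes, Gm24572 and Gm26219 near Mir185 and Gm27591 near Mir298, had no count in either library. The RNA of the host genes was not measured in these files.

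**Figure D3:**
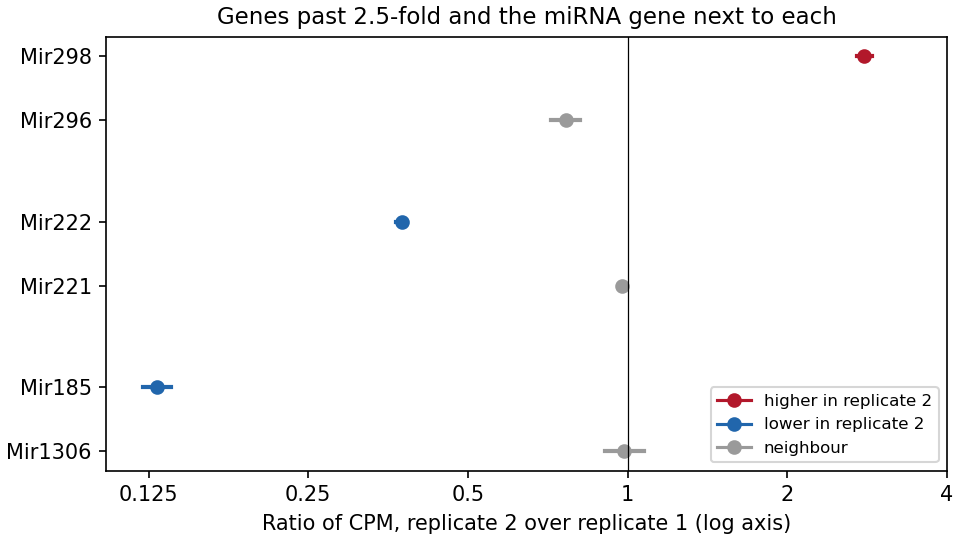
Ratio of CPM in replicate 2 over replicate 1 on a log axis (horizontal) for Mir298, Mir222 and Mir185 and, below each in grey, the miRNA gene next to it that had counts. Points are ratios and bars are 95% exact binomial intervals, which cover counting error only. Mir221 at 0.976 and Mir1306 at 0.986 lie near 1 and Mir296 lies at 0.764, away from the gene each stands beside.

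Seeds were searched for the 16 sequences alone, and genes on 1 chromosome were left out of the search. Besides Mir221, the 6 genes found to share one of these seeds had few or no counts. The 3p arm of Mir1947, on chromosome 16, has the seed of miR-674-5p, as the capitals show.
miR-674-5p: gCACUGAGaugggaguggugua
miR-1947-3p: gCACUGAGcuagcucucccucc
Replicate 2 held 43 counts of Mir1947 and replicate 1 held 17, a ratio of 1.91 (interval 1.07 to 3.57) with an adjusted p of 0.046 in Fisher's exact test. That call rests on few reads and was lost with the deeper library thinned (ratio 1.59, adjusted p = 0.25), with a minimum of 1 count (adjusted p = 0.064) and with no filter (adjusted p = 0.22). Mir7048, whose 5p arm has the seed of miR-185-3p, had 6 counts in replicate 2 and 0 in replicate 1. Mir21c, with the seed of miR-21a-5p, Mir497b, with that of miR-140-3p, Mir3473d, with that of miR-674-5p, and Mir1928, with that of miR-222-3p, had no count in either library.

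The 10 genes differed in base content and in where they lie. Hairpin GC content among the 7 genes higher in replicate 2 ran from 37.0% in Mir1839 to 57.0% in Mir674, and among the 3 lower genes from 42.0% in Mir153 through 54.4% in Mir222 to 58.5% in Mir185. The ranges overlap, and both lie across the median of 52.3% over the 149 genes. Over those 149 genes the log2 ratio and GC content had a Pearson correlation of -0.24 and a Spearman correlation of -0.27, given as a description over genes that share the same 2 libraries. In the 37 genes richest in GC, from 58.8% to 79.1%, the median log2 ratio was -0.17 and no gene met the rule. Toward lower GC content, the next 37 genes had a median of -0.02 and held 5 of the 10 genes, the next 36 had -0.0098 and held 2, and the 39 poorest in GC had 0.09 and held 3. Without the 10 genes the Pearson correlation over the other 139 was -0.28. The part of base content in the differences was not tested.

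**Figure D4:**
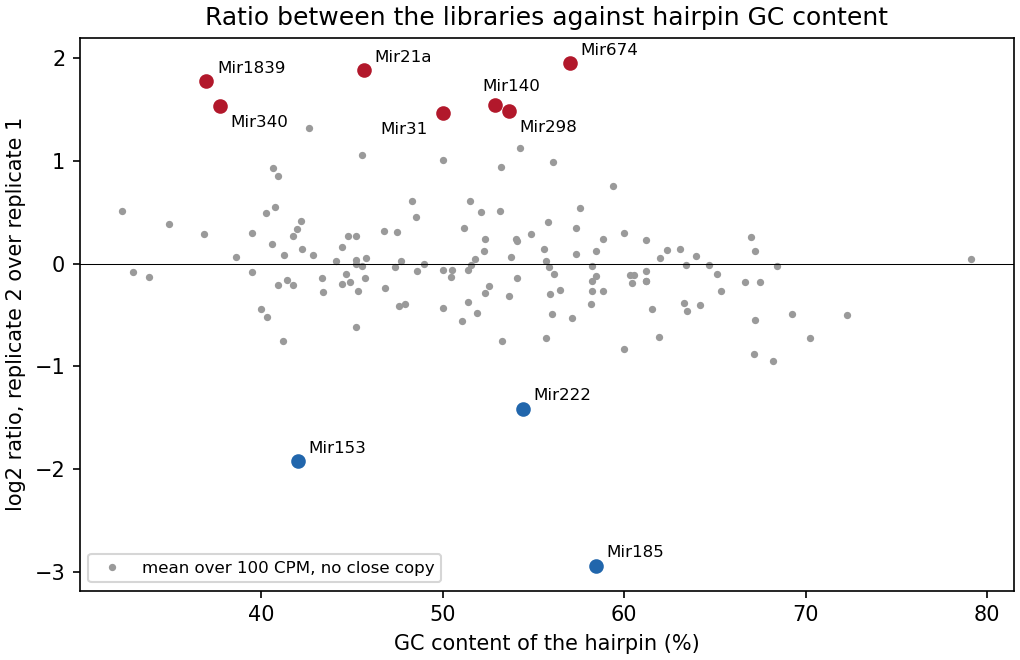
Log2 ratio of replicate 2 over replicate 1 (vertical; 0.5 CPM added) against the GC content of the annotated hairpin in percent (horizontal) for the 149 genes with a mean over 100 CPM and no close copy. Red and blue points are the genes that met the rule, 1 point per gene. Grey points drift slightly lower toward high GC content (Pearson correlation -0.24 over all 149), and the named genes stand above and below them from 37.0% to 58.5%.

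By position, 5 of the 10 genes, Mir21a, Mir140, Mir340, Mir185 and Mir153, lie within a protein-coding gene on the same strand, 2, Mir1839 and Mir31, within a non-coding gene, and 3, Mir674, Mir298 and Mir222, within none. Of the 149 genes, 66 lie in a protein-coding gene, 33 in a non-coding gene only and 50 in none. The median difference was 1.21-fold, 1.24-fold and 1.19-fold in these classes. The counts without regard to strand were the same as the sense counts for all 10 genes in both libraries, and none had an antisense count.

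Since Mir21a is known from reactive glia, a list of 10 miRNAs tied to reactive glia, inflammation or tissue stress was set beside it. The list also holds Mir222. Of the 8 other genes tested, 3 were higher in replicate 2, 1 was lower and 4 did not pass by the same Fisher's exact test, and with TMM factors or DESeq2 size factors 5 were higher and none was lower, scalings under which more of all 420 genes were higher too. The inflammatory regulator Mir146 had 846.3 CPM in replicate 2 and 635.3 CPM in replicate 1, 1.33-fold higher. Mir210, which is induced by low oxygen, had 83.6 CPM in replicate 2 and 59.1 CPM in replicate 1, 1.41-fold higher. Mir27b had 3176 CPM in replicate 2 and 2073 CPM in replicate 1, 1.53-fold higher. Mir146 shares 21 bases and Mir27b 20 bases with another miRNA gene, so the values of both are uncertain.

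Of the genes that did not pass, Mir155, induced in activated immune cells, had 25.1 CPM in replicate 2 and 27.9 CPM in replicate 1 (adjusted p = 0.5 by Fisher's exact test). Mir223 of myeloid cells had 15.1 CPM in replicate 2 and 18.8 CPM in replicate 1 (adjusted p = 0.22 by Fisher's exact test), and Mir142 of blood cells had 61.2 CPM in replicate 2 and 71.1 CPM in replicate 1 (adjusted p = 0.09 by Fisher's exact test). Mir34a, a target of p53, had 676.5 CPM in replicate 2 and 664.9 CPM in replicate 1, which passed as higher only with TMM factors (adjusted p = 0.021) or DESeq2 size factors (adjusted p = 0.014 by the exact binomial test). Without Mir222 the list had a median log2 ratio of -0.0048, against -0.07 over all 420 genes, and its sum was 15125 CPM in replicate 2 and 14038 CPM in replicate 1, so sum and median differ in sign. The median was 0.06 with TMM factors or DESeq2 size factors.

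The summed levels of 8 of 9 lists of miRNAs that mark cell types or organs differed by less than 1.5-fold between the libraries. The ratio of replicate 2 to replicate 1 was 1.08 for 15 neuron-enriched miRNAs, which include Mir153, 1.11 for 4 astrocyte-associated miRNAs and 1.07 for 4 oligodendrocyte miRNAs. It was 1.17 for 6 of microglia and leukocytes, 1.16 for 5 of endothelial and mural cells, 1.35 for 6 of choroid plexus and ependyma, 1.49 for 4 of red cells and 0.945 for 14 of other organs. By the same test, with Mir153 left out, 1 of 11 tested neuron-enriched genes was higher and 6 were lower in replicate 2, and with TMM factors or DESeq2 size factors 3 were higher and 4 lower. Of 4 tested astrocyte genes 3 were higher and 1 was lower. Of 3 tested oligodendrocyte genes 1 was higher and 1 lower, and of 4 tested genes of other organs 1 was higher and 1 lower, counts that changed under some settings. Over all 420 tested genes 27.1% were higher and 29.8% lower. In the microglial, endothelial, choroid plexus and red cell lists 5, 3, 4 and 3 genes were tested. In each of these 4 lists 2 genes were higher and none was lower, and the rest did not pass. Exceptions were 1 lower choroid plexus gene with the deeper library thinned, and 1 higher gene instead of 2 in the endothelial and red cell lists without regard to strand, and in the red cell list at a minimum of 100 counts. For microglia and leukocytes the median log2 ratio was -0.15, opposite in sign to the sum. The neuron-enriched list summed to 54451 CPM in replicate 2 and 50479 CPM in replicate 1, while its median log2 ratio was -0.07. Without its most abundant gene, Mir132, it summed to 30210 CPM in replicate 2 and 33852 CPM in replicate 1, a ratio of 0.892. Without Mir29a the astrocyte ratio became 1.74, and the other 7 lists kept their direction without their most abundant gene, a setting chosen after seeing the data. Of the tested genes, 8 of the neuron-enriched, 3 of the astrocyte, 2 of the oligodendrocyte and 1 of the microglial list share 20 or more bases with another miRNA gene and are uncertain. The miR-124 genes, which share 32 bases with each other, had at most 13 counts in a library.

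The remaining list, 13 miRNAs of epithelium or of brain and cord regions other than hippocampus, summed to 227.3 CPM in replicate 2, against 668.3 CPM in replicate 1. By the same test 9 of 10 genes were lower in replicate 2, against 29.8% of all 420 tested genes. The exception was Mir10a, which did not pass. These genes are not separate observations, since some lie close together, such as Mir182 and Mir183 on chromosome 6. The list was chosen with earlier results of these data known. Mir196a-1 had no count in either library. Mir200c of epithelia had 26.9 CPM in replicate 2, against 158.3 CPM in replicate 1, and was 5.88-fold lower. Mir429, of the same family, was 2.66-fold lower. The list thus differed in the direction of Mir185, Mir222 and Mir153 and against that of the other 7 genes, and its part in the differences was not tested. In bulk tissue, fewer cells of a type and less RNA per cell cannot be told apart.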

How the data were processed

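For each library the authors deposited raw read counts per miRNA gene, unpooled, on mouse build mm10 and GENCODE M21, as the notes beside the tables state. Aligner and counter: not given in the sources used here. Of 3 columns in a table, the strand column with the larger total was taken as sense, and the 4 leading lines that name no gene did not enter the totals. Among them, unmapped reads made up 11.2% in replicate 2 and 11.8% in replicate 1, reads with several places 48.4% and 45.9%, and reads outside miRNA genes 3.69% and 3.60%.

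All 2202 identifiers were matched to GENCODE M21 symbols, positions, hairpins and host genes. CPM was computed over sense counts on miRNA genes. A close copy was a stretch of 20 or more identical bases shared with another miRNA hairpin on either strand. Copies outside miRNA genes were not searched, and how castaneus-derived differences affected mapping is not given. RefSeq held both mature arms for 6 of the 10 genes and 1 arm for 4. The members and lists were chosen with earlier results of these data known. A single group of 2 libraries leaves no contrast for edgeR's quasi-likelihood test, so Fisher's exact test (scipy 1.17.1) was run on the 420 genes that reached 10 counts in each library, with Benjamini-Hochberg adjusted p-values called at 0.05. It was checked on simulated data. TMM factors (edgeR 4.0.16) and DESeq2 1.42.0 size factors were computed over those 420 genes and used with an exact binomial test. Genes named are the members, other genes that meet the rule, those nearest its thresholds, neighbours within 100 kb and genes that share a seed. The leading or contrasting genes of the lists are named as well. Of these, Mir182, Mir206, Mir210, Mir34a, Mir142, Mir155, Mir223, Mir10a, Mir196a-1 and the miR-124 genes were named after their values were seen. The alternatives were other columns, scalings, thresholds, filters and pseudocounts.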

Additional observations from a re-analysis of the deposited data

How the results depend on the processing

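All 7 listed genes met the rule in the column without regard to strand, with TMM factors, with DESeq2 size factors, with all reads or all but the most abundant gene as the denominator, and with the deeper library thinned. Over these settings and other pseudocounts the fold ranged from 7.35 to 8.13 for Mir185, from 3.68 to 4.06 for Mir674 and from 2.62 to 2.90 for Mir31. Of 80 log2 ratios recomputed for the 10 genes, none changed direction and 18 left the counting interval, under TMM factors, DESeq2 size factors or all reads as the denominator. The number of lower genes, 3, became 6 in the column without regard to strand, 6 without the most abundant gene in the denominator, and 9 with a minimum mean of 50 CPM. The number of higher genes, 7, became 11 with a fold of 2 and 3 with a fold of 3, where Mir140, Mir340 and Mir31 dropped out of the listed genes. It became 8 with TMM factors, DESeq2 size factors, the most abundant gene left out of the denominator or the deeper library thinned. Mir380, just outside the fold, was the gene gained each time. With no rule on copies it was also 8, with Mir26a-2 gained. Mir340 dropped out at a minimum mean of 200 CPM, which left 6. By Fisher's exact test 239 of 420 tested genes passed the adjusted threshold. Under its 7 alternatives the number lay between 200, of 270 tested at a minimum of 100 counts, and 244, of 627 tested at a minimum of 1 count. With no filter 223 of 2202 passed, so the share passing changed with the number tested. The alternatives with TMM factors or DESeq2 size factors used the exact binomial test. With either replicate left out no ratio can be formed. No paired analysis was possible because there is 1 group. The design has no replicate of the contrast, and counting intervals do not hold the spread between animals or preparations.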
